A study of Mus musculus with 12 samples.

Results

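Cholesterol synthesis enzymes and the SREBP pathway that switches their genes on were examined in liver transcriptomics of IDH2 KO and WT mice. The 26 members were chosen by gene name, as rows of the unfiltered count table of 36228 rows, and all 26 had a row of their own. Of these, 18 encode enzymes from acetoacetyl-CoA to cholesterol, 7 encode the SREBP transcription factors and the proteins that hold or cut them, and 1 encodes a sterol transfer protein. There were 3 female and 2 male *Idh2*-/- (IDH2 KO) mice, which carry a germ-line knockout of *Idh2* in every tissue, and 4 female and 3 male WT littermates. All mice were C57BL/6N and 8 to 10 weeks old, no treatment is named, and each mouse gave 1 library of whole liver RNA sequenced as 50 bp reads.

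Cholesterol is built in the cytosol and endoplasmic reticulum from acetyl-CoA. The mevalonate arm makes isoprenoid units, these are joined to squalene, squalene is closed to lanosterol, and lanosterol is trimmed and reduced to cholesterol. The pathway is switched on as a whole by SREBP-2, the product of *Srebf2*, while SREBP-1 from *Srebf1* acts mainly on fatty acid synthesis in liver. SCAP escorts the SREBPs to the Golgi when sterols are low, the site-1 and site-2 proteases release their active part there, and the INSIG proteins hold SCAP back when sterols are high. Several reductive steps use NADPH, which IDH2 makes in mitochondria from NADP+.

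Library depth was 15323300 to 25019649 reads in genes for IDH2 KO and 17055853 to 24084696 for WT. The deleted gene matched the labels, with 1 to 7 reads of *Idh2* per IDH2 KO library and 967 to 2363 per WT library. Of 11 hepatocyte markers, 10 had reads, and they summed to 98009 to 279501 CPM in IDH2 KO and 129841 to 240841 CPM in WT, where CPM is the count divided by the library's reads and scaled by edgeR's TMM factor. The 11th, *Cps1*, was listed at 0 in all libraries. Mitochondrial genes took 29.0% to 49.98% of reads in IDH2 KO and 22.4% to 49.3% in WT. IDH2 KO female 3 had reads in only 8531 genes, where the remaining IDH2 KO livers had 11303 to 12101 and WT livers 10482 to 12873. For members over both sexes, log2 fold changes that IDH2 KO female 3 moved by over 1.5 times are given with and without it. In whole liver, fewer cells of a type and less RNA per cell cannot be told apart.

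Counts of the members fell into a measured and an unmeasured set. The filter on low counts kept 16 members: *Acat2*, *Pmvk*, *Mvd*, *Idi1*, *Fdps*, *Sqle*, *Cyp51*, *Tm7sf2*, *Msmo1*, *Nsdhl*, *Ebp*, *Insig1*, *Srebf2*, *Mbtps1*, *Mbtps2* and *Stard4*. A further 7 were listed at 0 reads throughout: *Hmgcs1*, *Mvk*, *Fdft1*, *Hsd17b7*, *Sc5d*, *Insig2* and *Scap*. A count of 0 allows up to 3 reads, or 0.0123 CPM over the 12 libraries, counting error only. *Lss*, the lanosterol synthase gene, had 1 read, in WT female 1. *Srebf1* had 2 reads, both in WT female 3, and *Dhcr7*, the gene of the last reductase of one branch, had 2 reads in IDH2 KO and 6 in WT livers. From these counts nothing can be said of genotype for these 10 members. For *Srebf1* the paper gives a separate qPCR result, significantly lower in IDH2 KO livers.

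The split went with the number of RefSeq transcripts of each gene. All 10 members with 1 RefSeq transcript were tested and had 278 to 68110 reads, with a median of 21345. Of 16 members with 2 or more transcripts, 6 were tested, 10 had under 10 reads, and the highest, *Mvd*, had 2789. Over the whole table, 20.5% of genes with 2 or more RefSeq transcripts and 23.6% of genes with 1 passed the filter. These shares include genes with no read in any library (51.2% and 52.4% in the same order). They therefore do not show how large the step is among genes expressed in liver. How the reads of genes with several transcripts were assigned is not given in the sources used here, and its part in the counts was not tested. Their reads are compared below between libraries, and levels between genes carry this limit.

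**Figure D1:**
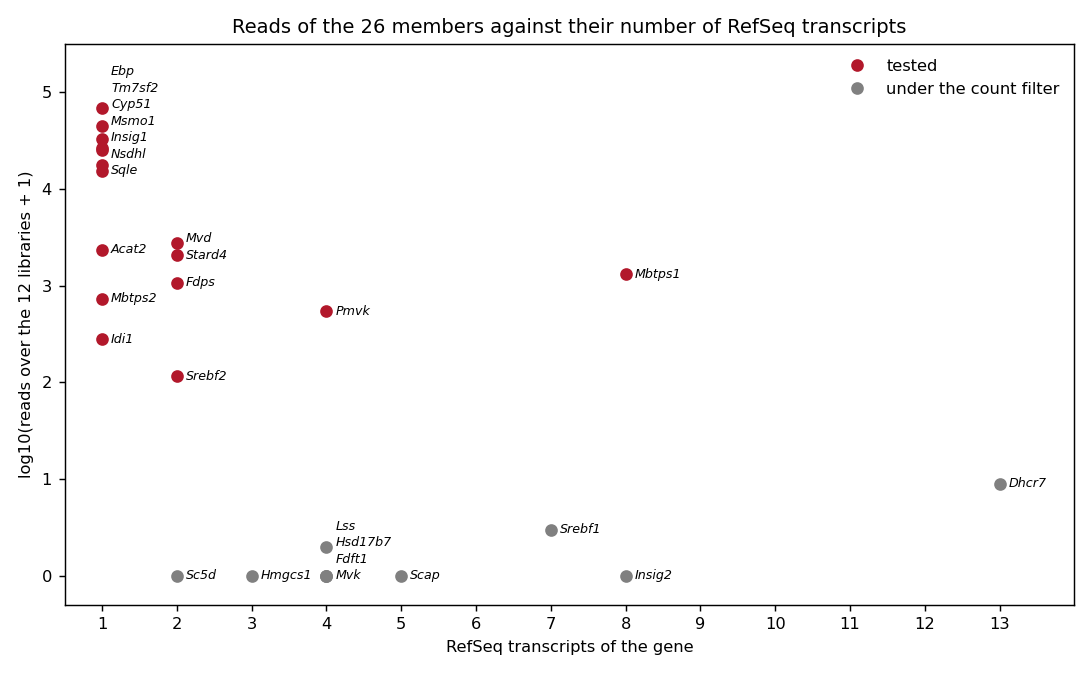
Reads of the 26 members over the 12 libraries, as log10 of reads plus 1, against the number of RefSeq transcripts of each gene, with tested members in red and members under the count filter in grey. The 10 members with 1 transcript lie at 278 reads or more, and the 10 grey members all have 2 or more transcripts.

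The upstream sequences show what the members have in common outside the counts. RefSeq start sites on GRCm38.p6 were matched for 22 members, and *Fdps*, *Fdft1*, *Sqle* and *Stard4* had none in the table used. In the 250 bases before the start, on both strands, 3 motifs of SREBP-controlled promoters were searched. CCAAT, the core of sites for NF-Y, which binds beside SREBPs, was present for 18 of 22 members and for 37.5% of all 27025 genes in the table. Among the 15 enzyme genes matched it was present in 14, the exception being *Acat2*. GGGCGG, a GC box bound by Sp1, was present for 20 of 22 members and 35.4% of all genes. TCACNCCAC, 1 spelling of the sterol regulatory element, was present for 1 member, *Hmgcs1*, and 1.22% of all genes. Other spellings were not searched, so a window without this match may still hold such an element. In the *Srebf2* window below, the stretch tcaccccat differs from it in the last letter and was not counted. A match is only a match of letters in this window.

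The 4 windows below are those of the gene with the sterol element match and of 3 tested members, *Cyp51*, *Insig1* and *Srebf2*, whose values follow. They run 5′ to 3′ on the strand of the gene, end at the base before the start, and carry the matches of either strand in capitals (ATTGG is CCAAT and CCGCCC is GGGCGG on the other strand).
*Hmgcs1*, the cytosolic HMG-CoA synthase gene, chr13:119690101-119690350, plus strand: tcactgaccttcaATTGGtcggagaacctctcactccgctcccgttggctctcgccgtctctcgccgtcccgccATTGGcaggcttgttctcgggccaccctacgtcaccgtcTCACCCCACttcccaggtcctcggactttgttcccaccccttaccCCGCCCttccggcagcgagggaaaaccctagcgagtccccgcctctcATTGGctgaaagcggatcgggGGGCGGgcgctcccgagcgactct
*Cyp51*, the lanosterol demethylase gene, chr5:4104698-4104947, minus strand: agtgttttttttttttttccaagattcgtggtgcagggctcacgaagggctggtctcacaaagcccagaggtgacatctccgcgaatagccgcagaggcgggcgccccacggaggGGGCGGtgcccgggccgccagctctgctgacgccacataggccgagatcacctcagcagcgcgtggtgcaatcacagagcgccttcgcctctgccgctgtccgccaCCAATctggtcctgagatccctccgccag
*Insig1*, chr5:28071162-28071411, plus strand: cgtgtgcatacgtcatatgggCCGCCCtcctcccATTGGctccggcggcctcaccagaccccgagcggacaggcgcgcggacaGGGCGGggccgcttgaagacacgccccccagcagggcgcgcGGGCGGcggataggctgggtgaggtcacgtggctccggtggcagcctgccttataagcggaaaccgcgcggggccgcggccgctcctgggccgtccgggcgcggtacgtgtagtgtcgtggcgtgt
*Srebf2*, chr15:82147019-82147268, plus strand: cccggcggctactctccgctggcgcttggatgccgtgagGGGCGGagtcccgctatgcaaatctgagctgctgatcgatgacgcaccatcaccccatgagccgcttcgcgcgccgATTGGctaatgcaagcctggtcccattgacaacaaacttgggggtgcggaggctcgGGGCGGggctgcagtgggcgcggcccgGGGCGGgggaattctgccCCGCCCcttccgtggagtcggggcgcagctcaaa
In *Hmgcs1* the sterol element begins 137 bases before the start and lies between CCAAT matches that begin at 176 and at 45. *Cyp51* has 1 CCAAT, beginning 29 bases before the start, *Insig1* has 1 at 216 and *Srebf2* has 1 at 135. The matches shown do not overlap each other.

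Most tested members had lower mean levels in IDH2 KO than in WT livers, and none passed the test over all genes. SE below is the standard error of a log2 fold change. In edgeR's quasi-likelihood fit with sex and genotype, 0 of 16 members were past an adjusted p of 0.05 (Benjamini-Hochberg over 7618 genes), and DESeq2 also called 0 of 16. Over all genes edgeR called 29, which is 0.381%. At an unadjusted p under 0.05, 5 members were lower in IDH2 KO, against 3.24% of all genes, and 0 were higher, against 3.48%. The 5 were *Acat2*, *Pmvk*, *Fdps*, *Sqle* and *Srebf2*, and the count hung on single livers. It was 9 without IDH2 KO female 2, against 339 of 7905 genes in that fit. It was 3 without IDH2 KO female 1 (258 of 7874 genes), IDH2 KO male 1 (200 of 8035) or WT male 1 (290 of 8103). It was 2 without IDH2 KO male 2 (211 of 8032 genes), WT female 2 (180 of 7802) or WT male 2 (184 of 7979). Without IDH2 KO female 3 it was 4, against 424 of 8107 genes. These 4 were *Pmvk*, *Sqle*, *Srebf2* and *Ebp*, while *Acat2* and *Fdps* were no longer under 0.05. The log2 fold change was below 0 for 14 of 16 members, against 50.5% of all genes, and its median was −0.52 over the members, against −0.005 over all genes. For 5 members at least 4 of 5 IDH2 KO livers were under the WT livers of their own sex (*Acat2*, *Sqle*, *Msmo1*, *Srebf2* and *Stard4*), against 4.31% of all genes, and the reverse held for 0 members. The members share regulators and libraries, so these counts are descriptions of 1 set of 12 livers.

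**Figure D2:**
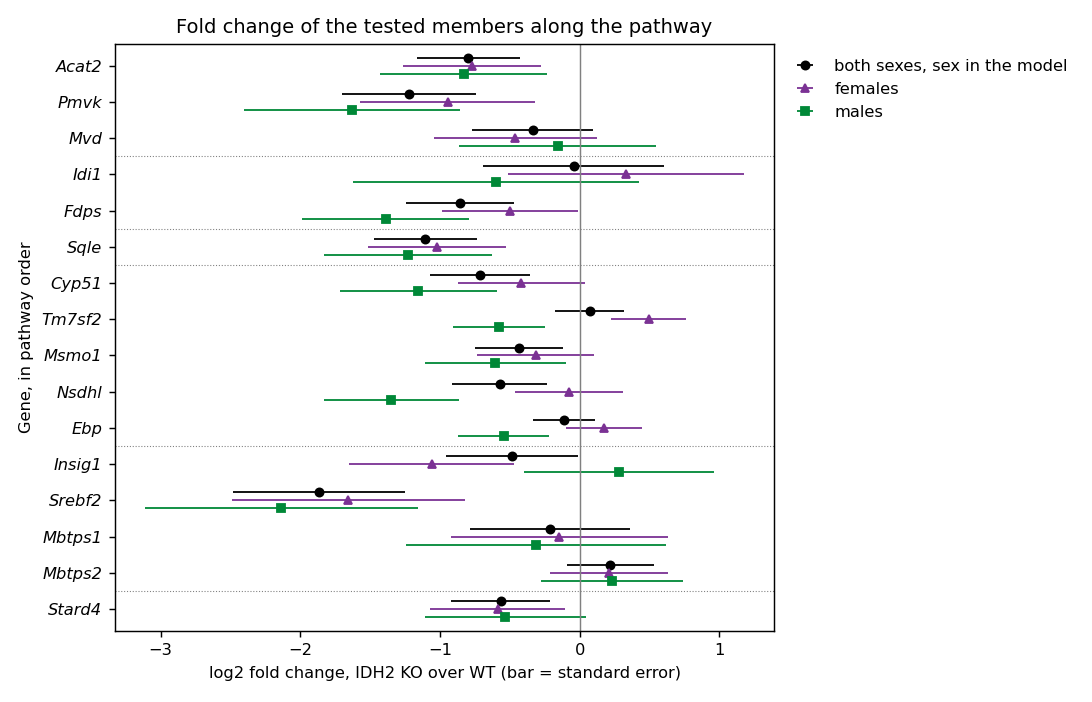
Log2 fold change of IDH2 KO over WT for the 16 tested members in pathway order, with SEs, for both sexes together (circles), females (triangles) and males (squares). The circles lie left of 0 for 14 members, with *Srebf2* at −1.87 and *Pmvk* at −1.22 the farthest, and *Tm7sf2* (0.07) and *Mbtps2* (0.22) right of 0.

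In the mevalonate arm the 3 tested members had log2 fold changes of −1.22 to −0.34, with a median of −0.80. *Acat2* encodes the cytosolic acetoacetyl-CoA thiolase that starts the pathway (chromosome 17, 12942890 to 12960747, GENCODE M21 on GRCm38). It stood at 7.87, 10.01 and 2.44 CPM in the IDH2 KO females and 6.34 and 4.61 CPM in the IDH2 KO males, against a lowest of 6.93, a median of 8.34 and a highest of 21.4 CPM in the 7 WT livers. Within each sex, IDH2 KO female 2 was the one IDH2 KO liver to reach the WT values, and among WT livers WT female 2 stood apart. Its log2 fold change was −0.80 (SE 0.37, edgeR adjusted p = 0.730), or −0.57 without IDH2 KO female 3 and −0.53 without WT female 2. *Acat3*, an adjacent and closely related gene whose reads the counting may share with *Acat2*, had −0.29 (SE 0.23).

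*Pmvk*, the phosphomevalonate kinase gene (chromosome 3, 89454541 to 89469013), stood at 1.46, 1.71 and 0.444 CPM in IDH2 KO females and 1.34 and 0.777 CPM in IDH2 KO males, against a lowest of 0.927, a median of 2.72 and a highest of 5.28 CPM in WT. These values rest on 116 reads in IDH2 KO and 425 in WT livers. The IDH2 KO libraries lay within 0.444 to 1.71 CPM, and WT female 3, WT female 4 and WT male 1 lay in that range too. The log2 fold change was −1.22 (SE 0.48, edgeR adjusted p = 0.633). *Mvd*, which encodes the decarboxylase that yields isopentenyl diphosphate, was uneven among IDH2 KO livers, at 1.71, 13.998 and 21.4 CPM in females and 6.39 and 5.59 CPM in males, against a lowest of 4.20, a median of 10.4 and a highest of 23.1 CPM in WT. Its lowest and highest IDH2 KO values were both from females, and the log2 fold change of −0.34 (SE 0.43) was −0.04 without IDH2 KO female 1 and −0.64 without IDH2 KO female 3.

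Both genes tested from isopentenyl diphosphate to squalene were of low count. *Fdps*, the farnesyl diphosphate synthase gene (chromosome 3, 89093588 to 89101959), stood at 3.08, 4.72 and 1.33 CPM in IDH2 KO females and 3.53 and 1.45 CPM in IDH2 KO males, against a lowest of 2.32, a median of 5.60 and a highest of 8.18 CPM in WT. Both IDH2 KO males lay below all 3 WT males, while IDH2 KO female 1 and IDH2 KO female 2 lay within the WT females. In the fit its log2 fold change came to −0.86 (SE 0.38, edgeR adjusted p = 0.725). *Idi1*, the isopentenyl diphosphate isomerase gene, averaged 1.05 ± 0.869 CPM in IDH2 KO (SD, n = 5) and 1.13 ± 0.415 CPM in WT (SD, n = 7), on 112 and 166 reads, and IDH2 KO female 3 had none. Its log2 fold change was −0.04 and turned to 0.24 without that library.

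*Sqle* had the smallest unadjusted p among the enzymes. It encodes squalene epoxidase, a flow-limiting step that uses NADPH and oxygen, and lies on chromosome 15 from 59315077 to 59331192. It stood at 21.4, 99.1 and 28.4 CPM in the IDH2 KO females and 24.3 and 16.2 CPM in the IDH2 KO males, against a lowest of 42.3, a median of 55.9 and a highest of 135 CPM in WT. Every IDH2 KO library except IDH2 KO female 2 lay below all 7 WT libraries, and IDH2 KO female 2 lay above WT female 3, WT female 4 and the WT males. The means were 37.9 ± 34.5 CPM (SD, n = 5) in IDH2 KO and 78.0 ± 40.9 CPM (SD, n = 7) in WT. The log2 fold change was −1.11 (SE 0.37, edgeR adjusted p = 0.488), and over 22 other settings the adjusted p ran from 0.00314 to 0.853. It passed 0.05 in 2 of them, without IDH2 KO female 2 (log2 fold change −1.63, adjusted p = 0.0432) and without a filter on low counts (−1.12, adjusted p = 0.00314). The genes on either side of *Sqle* in the pathway, *Fdft1* and *Lss*, had at most 1 read.

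**Figure D3:**
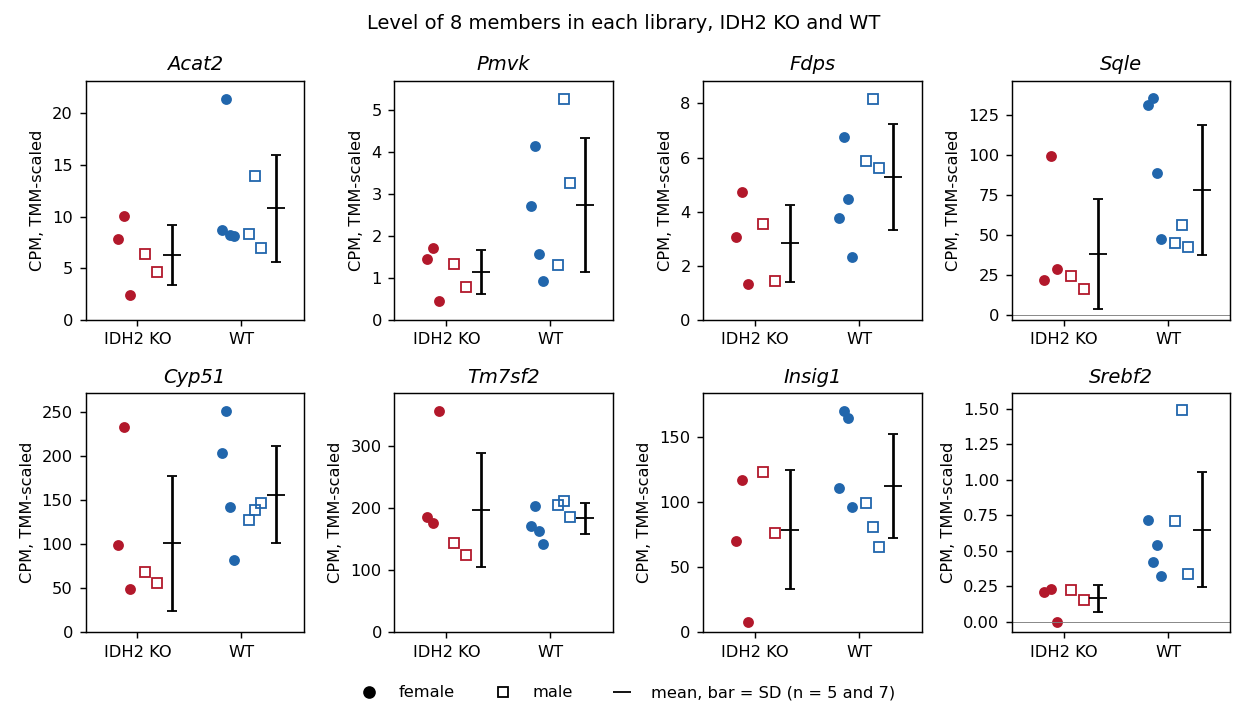
Level of 8 members in each library in TMM-scaled CPM, IDH2 KO (red) left of WT (blue), females as filled circles and males as open squares, with the mean and SD (n = 5 and 7). For *Sqle* 4 of 5 IDH2 KO livers lie under 30 CPM and every WT liver is at 42.3 CPM or more, while for *Srebf2* the highest IDH2 KO value is 0.228 CPM and the lowest WT value 0.325 CPM. The *Srebf2* values rest on 0 to 5 reads per IDH2 KO library and 5 to 37 per WT library.

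From lanosterol to cholesterol 5 genes were tested, and 4 had a log2 fold change below 0 (median of the 5, −0.43). *Cyp51* (chromosome 5, 4081145 to 4104746) stood at 99.0, 233 and 48.5 CPM in IDH2 KO females and 68.2 and 55.3 CPM in IDH2 KO males, against a lowest of 82.2, a median of 142 and a highest of 251 CPM in WT. IDH2 KO female 2 lay above all WT libraries but WT female 2. Of the other 4 IDH2 KO livers, 3 lay below every WT liver and IDH2 KO female 1 above WT female 4 alone. In the fit its log2 fold change came to −0.71 (SE 0.36, edgeR adjusted p = 0.756), or −1.17 without IDH2 KO female 2 and −0.52 without IDH2 KO female 3.

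*Msmo1*, the sterol methyl oxidase gene that acts after CYP51, was at 59.5, 200.1 and 56.3 CPM in IDH2 KO females and 88.3 and 50.8 CPM in IDH2 KO males, against a lowest of 88.3, a median of 126 and a highest of 171 CPM in WT. *Nsdhl*, the next enzyme of demethylation and an X-linked gene, was at 63.9, 122 and 33.9 CPM in IDH2 KO females and 40.3 and 28.0 CPM in IDH2 KO males, against a lowest of 42.8, a median of 85.9 and a highest of 97.9 CPM in WT. For both genes IDH2 KO female 2 had the highest level of the 12 livers, and WT female 4 the lowest of the WT livers. The log2 fold change of *Msmo1* was −0.43 (SE 0.31), or −0.90 without IDH2 KO female 2, −0.29 without IDH2 KO female 1 and −0.27 without IDH2 KO female 3. For *Nsdhl* it was −0.57 (SE 0.34), or −0.97 without IDH2 KO female 2 and −0.37 without IDH2 KO male 2.

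*Tm7sf2* and *Ebp* were set apart by IDH2 KO female 3. *Tm7sf2*, a sterol reductase gene of the C14 double bond, was at 186, 176 and 357 CPM in IDH2 KO females and 144 and 125 CPM in IDH2 KO males, against a lowest of 143, a median of 187 and a highest of 213 CPM in WT. *Ebp*, the sterol isomerase gene and also X-linked, was at 252, 295 and 546 CPM in IDH2 KO females and 184 and 146 CPM in IDH2 KO males, against a lowest of 229, a median of 292 and a highest of 379 CPM in WT. The library with the lowest value of 10 other members had the highest value of these 2 genes. The log2 fold change of *Tm7sf2* was 0.07 (SE 0.25), or −0.20 without IDH2 KO female 3, and that of *Ebp* was −0.11 (SE 0.22), or −0.37 without it. *Tm7sf2* shares exons with *Vps51*, a gene on the same strand, so its reads may hold some of that gene.

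Of the SREBP machinery, 4 of 7 genes were tested and the largest log2 fold change was that of the factor itself. *Srebf2* (chromosome 15, 82147181 to 82205379) had 17 reads in all IDH2 KO livers and 98 in all WT livers. It stood at 0.208, 0.228 and 0 CPM in IDH2 KO females and 0.223 and 0.155 CPM in IDH2 KO males, against a lowest of 0.325, a median of 0.542 and a highest of 1.49 CPM in WT. In scaled CPM the groups did not overlap. *Srebf2* was the only tested member with all 5 IDH2 KO livers under the WT livers of their own sex (0.879% of all genes). In reads the groups met, since IDH2 KO female 1, IDH2 KO male 1 and WT male 3 each had 5. The order of IDH2 KO male 1 and WT male 3 came from their TMM factors (1.21 and 0.808). The log2 fold change was −1.87 (SE 0.62, edgeR adjusted p = 0.484), and the adjusted p ran from 0.148 to 0.897 over 20 other settings. With 0 to 5 reads per IDH2 KO library and 5 to 37 per WT library, the size of the *Srebf2* difference is known only loosely.

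*Insig1*, itself a known SREBP target gene, was at 70.3, 117 and 7.84 CPM in IDH2 KO females and 123 and 76.2 CPM in IDH2 KO males, against a lowest of 65.5, a median of 99.5 and a highest of 170 CPM in WT. Only IDH2 KO female 3 lay outside the range of all WT livers. Within sex, IDH2 KO female 1 also lay below the WT females (96.5 to 170 CPM), and IDH2 KO male 1 lay above the WT males (65.5 to 99.5 CPM). In the fit the log2 fold change of *Insig1* came to −0.48 (SE 0.47), or −0.12 (SE 0.23) without IDH2 KO female 3. The proteases that release SREBPs showed no shared direction. *Mbtps1* (site-1) was at 6.87, 7.45 and 0 CPM in IDH2 KO females and 4.11 and 5.54 CPM in IDH2 KO males, against a lowest of 4.17, a median of 5.67 and a highest of 6.69 CPM in WT, with a log2 fold change of −0.21 that turned to 0.10 without IDH2 KO female 3. *Mbtps2* (site-2, X-linked) averaged 3.20 ± 1.40 CPM in IDH2 KO (SD, n = 5) and 2.74 ± 0.508 CPM in WT (SD, n = 7), a log2 fold change of 0.22 (SE 0.31), or 0.03 without IDH2 KO female 2 and 0.44 without IDH2 KO female 3. *Stard4*, a cytosolic sterol transfer protein gene and a known SREBP-2 target, was at 5.83, 10.1 and 1.40 CPM in IDH2 KO females and 8.04 and 6.37 CPM in IDH2 KO males, against a lowest of 6.91, a median of 8.94 and a highest of 13.5 CPM in WT. Its log2 fold change was −0.56 (SE 0.35), or −0.89 without IDH2 KO female 2 and −0.31 without IDH2 KO female 3.

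**Figure D4:**
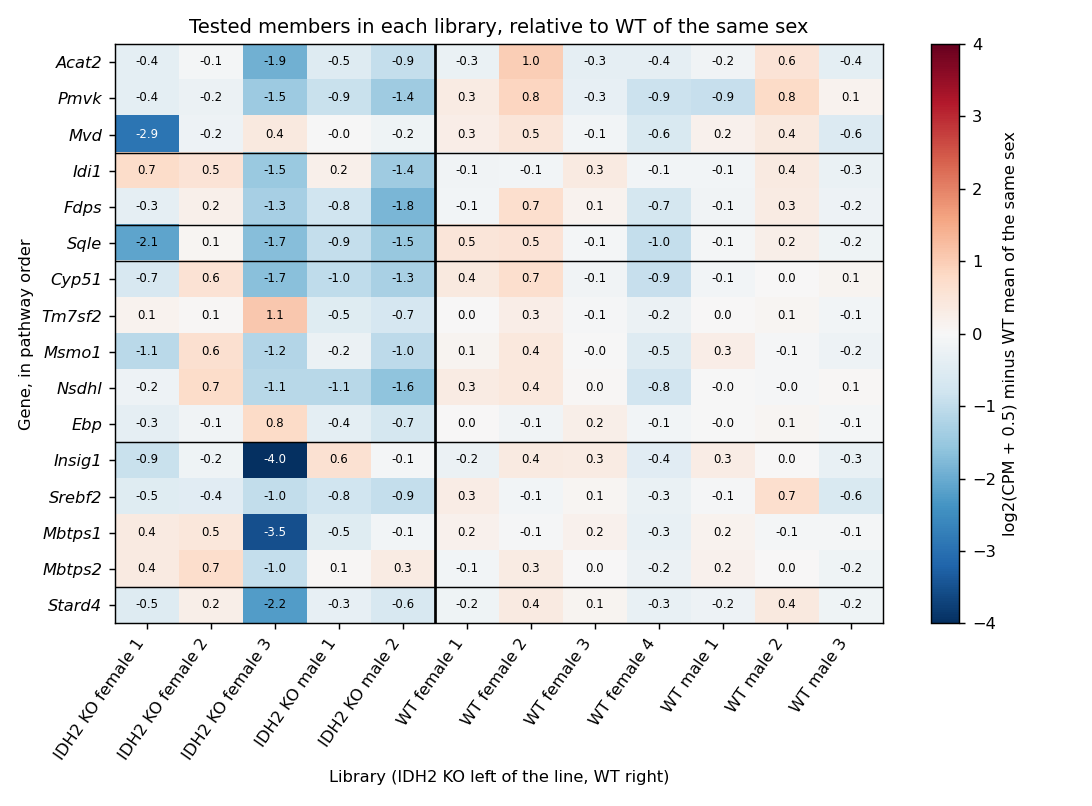
Each tested member in each library as log2 of CPM plus 0.5 minus the WT mean of the same sex, IDH2 KO left of the line and WT right, genes in pathway order. Blue cells fill most of the IDH2 KO columns except IDH2 KO female 2, the darkest are *Insig1* (−3.99) and *Mbtps1* (−3.53) in IDH2 KO female 3, and WT female 4 is blue in all 16 rows.

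The level of the members as a group varied between livers of the same genotype. Relative to WT of the same sex, the 16 members averaged −0.55 in IDH2 KO female 1, 0.18 in IDH2 KO female 2, −1.33 in IDH2 KO female 3, −0.45 in IDH2 KO male 1 and −0.88 in IDH2 KO male 2 (log2). Among the WT livers they ran from −0.48 in WT female 4, where all 16 were below the mean, to 0.37 in WT female 2. IDH2 KO male 1 and IDH2 KO female 2 thus lay above the lowest WT liver. In the same units the median of all genes tested was −0.21 in IDH2 KO female 3 and within 0.02 of 0 in the other libraries. IDH2 KO female 3 was the lowest of the 12 libraries for 10 members and IDH2 KO male 2 for 5, while IDH2 KO female 2 was the highest IDH2 KO library for 11.

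Transcripts of red cells split the libraries the same way, though not in the same order. The erythroid markers *Hba-a1*, *Hba-a2*, *Hbb-bs*, *Hbb-bt* and *Alas2* summed to 33.5 to 305 CPM in IDH2 KO and 16.5 to 140 CPM in WT. The 5 libraries with the highest sums were IDH2 KO female 1 (156 CPM), IDH2 KO female 3 (215 CPM), IDH2 KO male 1 (305 CPM), IDH2 KO male 2 (215 CPM) and WT female 4 (140 CPM), and they were also the 5 in which the members averaged lowest. Among these 5 the orders differed, since IDH2 KO male 1 had the highest sum and the least lowered members. IDH2 KO female 2 had 33.5 CPM, and the highest of the other 6 WT livers had 54.5 CPM. The 4 globin genes had log2 fold changes of 1.74 to 2.37 with unadjusted p under 0.05, *Alas2* had −0.92, and 0 of 5 passed an adjusted p of 0.05. Their part in the result was not tested.

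Summed markers of the other cell types overlapped between the genotypes. Summed Kupffer cell and macrophage markers were 257 to 808 CPM in IDH2 KO and 170 to 614 CPM in WT, with 8 of 10 tested, 7 above 0 in log2 fold change and none with an unadjusted p under 0.05. Stellate cell and fibroblast markers were 22.1 to 66.7 CPM and 9.07 to 70.5 CPM, endothelial markers 32.4 to 84.2 CPM and 31.5 to 84.7 CPM, and cholangiocyte markers 3.21 to 5.63 CPM and 0.562 to 64.4 CPM, each in IDH2 KO and then in WT. Lymphocyte markers reached at most 3.46 CPM in IDH2 KO and 2.57 CPM in WT, and neutrophil markers 1.41 CPM in IDH2 KO and 0.345 CPM in WT. *C1qc*, *Dcn*, *Spp1*, *Cd3e* and *S100a9* were listed at 0. Of 10 hepatocyte markers tested, 8 had a log2 fold change below 0 (median −0.17), and *Apoa2* alone had an unadjusted p under 0.05 (log2 fold change 0.96). Their part in the result was not tested.

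Among the 16 tested members, levels per kilobase of exon were highest for late enzymes and *Insig1*, while *Hsd17b7*, *Sc5d* and *Dhcr7* of the same late steps were at or near 0. *Ebp* led at 123 ± 68.0 CPM per kilobase in IDH2 KO (SD, n = 5) and 125 ± 22.7 in WT (SD, n = 7). *Tm7sf2* followed at 44.9 ± 21.0 in IDH2 KO and 41.7 ± 5.80 in WT, then *Insig1* at 25.5 ± 14.9 in IDH2 KO and 36.4 ± 12.999 in WT, in the same unit. *Cyp51*, *Nsdhl*, *Msmo1*, *Sqle*, *Mvd* and *Acat2* came next in that order, at 30.1 to 3.50 over all 12 libraries. *Stard4*, *Pmvk*, *Fdps*, *Mbtps1*, *Idi1* and *Mbtps2* lay between 1.46 and 0.290, and *Srebf2* was last at 0.0227 ± 0.0133 in IDH2 KO and 0.0903 ± 0.0564 in WT. Only *Ebp* from *Tm7sf2* and *Mbtps2* from *Srebf2* were apart by more than their SDs, and the other neighbours were not. The 7 highest all have 1 RefSeq transcript.

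Within the sexes the members were again mostly below 0, and no difference passed the test. In females the median log2 fold change was −0.44, with 12 of 16 below 0, against 3836 of 7618 genes. Without IDH2 KO female 3 it was −0.13, with 10 of 16 below 0, against 3981 of 8107 genes. By edgeR 0 were lower in females at an unadjusted p under 0.05, against 2.22% of all genes. DESeq2 gave 2, against 247 of 7618 genes. In males the median was −0.60, with 14 of 16 below 0, against 3976 of 7618 genes. By edgeR 3 were lower in males at an unadjusted p under 0.05, against 1.96% of all genes. DESeq2 gave 6, against 213 of 7618 genes. The 3 from edgeR were *Nsdhl* (−1.35, SE 0.48), *Fdps* (−1.39, SE 0.60) and *Srebf2* (−2.14, SE 0.98), with edgeR adjusted p of 0.995 or more. *Nsdhl* stood at 28.0 and 40.3 CPM in the 2 IDH2 KO males, against 84.6 to 90.8 CPM in the 3 WT males. Both IDH2 KO males also lay below all 3 WT males for *Acat2*, *Fdps*, *Sqle*, *Cyp51*, *Tm7sf2*, *Msmo1*, *Ebp*, *Srebf2*, *Mbtps1* and *Stard4*. The share of all genes with this order in males was not counted. By edgeR the count in males was 1 without WT male 2, against 125 of 7979 genes in that fit. Without IDH2 KO male 2, which leaves 1 IDH2 KO male, the median in males was −0.48. The count in females was 5 without IDH2 KO female 2, against 364 of 7905 genes. It was 1 without WT female 4, against 167 of 7886 genes. Summed hepatocyte markers also separated the males, at 98009 to 108108 CPM in IDH2 KO males and 129841 to 174875 CPM in WT males, but not the females, at 198950 to 279501 CPM in IDH2 KO females and 170561 to 240841 CPM in WT females. Their part in the result was not tested.

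The genotype effect was not shown to differ between the sexes for any member. In the interaction, *Tm7sf2* was the only member with an unadjusted p under 0.05, against 1.38% of genes in that direction. Its log2 fold change was −0.58 in males and 0.49 in females, a difference of −1.07 (SE 0.42, edgeR adjusted p = 0.9998). Without IDH2 KO female 3 the log2 fold change of *Tm7sf2* in females was 0.10. Its level in IDH2 KO females other than IDH2 KO female 3 was 176 to 186 CPM. The count was 2 without WT female 2 (116 of 7802 genes), IDH2 KO female 1 (153 of 7874) or IDH2 KO female 3 (227 of 8107). It was 0 without WT male 2 (126 of 7979 genes). Without IDH2 KO male 2, which leaves 1 IDH2 KO male, the median difference over the members was −0.16. *Nsdhl* (difference −1.27, SE 0.61) and *Insig1* (1.34, SE 0.89) had differences of similar size with wider errors.

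In WT mice 2 enzymes were lower in males than in females at an unadjusted p under 0.05, against 3.56% of all genes, and 0 of 16 members passed the adjusted test. *Mvd* was at 4.20 to 8.54 CPM in WT males and 10.4 to 23.1 CPM in WT females, a log2 fold change of −1.34 (SE 0.60, edgeR adjusted p = 0.836). *Sqle* was at 42.3 to 55.9 CPM in WT males and 47.6 to 135 CPM in WT females, a log2 fold change of −1.08 (SE 0.50, edgeR adjusted p = 0.846). The ranges of *Mvd* did not overlap and those of *Sqle* did, through WT female 4. Without any 1 WT liver other than WT female 4, 0 members had an unadjusted p under 0.05. The median over the members was −0.03, against 0.01 over all genes.

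Genes next to the pathway were read from lists of sterol and isoprenoid synthesis, SREBP control, cholesterol handling and SREBP-1 targets. Of the genes of SREBP control, *Ufd1l* and *Vcp*, which encode parts of a complex that extracts proteins from the endoplasmic reticulum, had log2 fold changes of 0.47 (SE 0.24) and −0.34 (SE 0.21). *Rnf139*, a ubiquitin ligase gene, had −0.92 (SE 0.61), and none of these was called. With single libraries left out, *Ufd1l* ran from 0.21 to 0.57, *Vcp* from −0.46 to −0.19 and *Rnf139* from −1.28 to −0.58. Among 8 tested of 10 listed genes of other sterol and isoprenoid synthesis, with a median of −0.30, 0 were called. At an unadjusted p under 0.05, 1 of the 8 was lower, against 3.24% of all genes. This was *Aacs*, which encodes the cytosolic acetoacetyl-CoA synthetase that feeds the pathway. *Aacs* was at 6.62, 27.9 and 4.44 CPM in IDH2 KO females and 19.6 and 7.61 CPM in IDH2 KO males, against a lowest of 20.7, a median of 43.4 and a highest of 82.5 CPM in WT. IDH2 KO female 2 was again the highest IDH2 KO library and lay within the WT range. The log2 fold change was −1.68 (SE 0.48, edgeR adjusted p = 0.356, 0.0315 from DESeq2), and *Aacs* was called in 2 of 22 other settings. *Dhdds*, which makes dolichol chains, had −0.46, and *Acat1*, the mitochondrial thiolase gene, and *Ggps1*, the geranylgeranyl diphosphate synthase gene, had 0.35 and 0.56.

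The SREBP-1 targets of fatty acid synthesis lay below 0 in all 9 tested of 15 listed, against 50.5% of all genes. Their median was −0.95, and edgeR called 0, against 0.381% of all genes. At an unadjusted p under 0.05, 3 were lower, against 3.24% of all genes. These were *Fasn*, the fatty acid synthase gene (−1.07, SE 0.31), *Thrsp*, a lipogenic regulator gene (−1.08, SE 0.35), and *Scd1*, the stearoyl-CoA desaturase gene (−1.45, SE 0.65). Over the other settings, *Fasn* was called in 1 of 21, *Thrsp* in 1 of 22 and *Scd1* in 1 of 22. *Scd1* stood at 1736, 2558 and 46.2 CPM in IDH2 KO females and 1230 and 523 CPM in IDH2 KO males, against a lowest of 1743, a median of 2701 and a highest of 5646 CPM in WT. IDH2 KO female 2 alone exceeded the lowest WT liver, and IDH2 KO female 3 lay far below the rest. *Acss2*, a cytosolic acetyl-CoA synthetase gene, had −0.95 (SE 0.48). In the list of cholesterol uptake, transport, esterification and excretion, 0 of 15 tested genes (of 21 listed) were called. At an unadjusted p under 0.05, 3 of the 15 were lower, against 3.24% of all genes. Among them were *Cyp27a1*, a sterol 27-hydroxylase gene (−0.52), and *Soat2*, which esterifies cholesterol in hepatocytes (−0.56). *Scarb1*, the HDL receptor gene, had 0.50 (SE 0.25). Some of these genes were chosen as list members with results of these livers already known, so their counts are not independent evidence.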

How the data were processed

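Liver RNA of 5 IDH2 KO and 7 WT mice was analysed, 1 library per mouse, and genotype and sex were taken from the labels. The deposited values are unnormalized counts, 1 row per gene, with a shorter copy of 8730 rows that holds equal counts. FastQC and GRCm38.p5 appear in the submitters' processing notes. For the aligner, the counter, its strand setting and its handling of reads that match several transcripts, nothing is stated (not given in the sources used here). Labels do not say that library numbers mark a litter or batch.

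All genes of the longer table were fitted together by edgeR's quasi-likelihood test (edgeR 4.0.16 under R 4.3.3), after TMM scaling and filterByExpr (minimum count 10, total 15), with terms for sex and genotype. This count model replaced the authors' test of log2 RPM without sex. P values were adjusted by Benjamini-Hochberg, threshold 0.05. A model with 1 mean per group gave the contrasts within sex, between WT sexes and the interaction. The fit was tested on simulated data. DESeq2 1.42.0, limma 3.58.1 on log2 of RPM plus 1, other scalings and filters, a fit blocked on replicate number and the omission of each library in turn were alternatives. Deviations used log2 of CPM plus 0.5. Coordinates and exon lengths are from GENCODE M21, and transcript numbers and upstream sequences from RefSeq. Figures were drawn with matplotlib 3.10.9 in Python 3.11.15.

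Members and lists were chosen with earlier results of these data known. All members are named, with up to 4 tested genes of smallest p from each other list, and some genes so taken or listed as markers are not reported here. *Apoa2* and *Acat3* were named after their values were seen. Exons of 5 tested members overlap those of another gene, 2 of them only on the opposite strand.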

Additional observations from a re-analysis of the deposited data

Results flagged for a closer look

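Of 48 groups of member levels tested, 8 held a library far from the rest of its group by Dixon's criterion. For independent, normally spread values chance meets it in about 1 group in 20. These groups share libraries and overlap, so that rate is no measure for the 8. In 3 the library was IDH2 KO female 2, whose levels of *Sqle* (99.1 CPM), *Cyp51* (233 CPM) and *Msmo1* (200.1 CPM) lay above those of the other 4 IDH2 KO livers (16.2 to 28.4, 48.5 to 99.0 and 50.8 to 88.3 CPM in the same order of genes). IDH2 KO female 3 stood apart for *Tm7sf2*, at 357 CPM beside 125 to 186 CPM in the other IDH2 KO livers. In WT, female 4 was low for *Nsdhl*, at 42.8 CPM beside 75.2 to 97.9 CPM, and male 2 was high for *Srebf2*, at 1.49 CPM beside 0.325 to 0.720 CPM. Among WT females alone, female 2 was high for *Acat2*, at 21.4 CPM beside 8.11 to 8.69 CPM, and female 3 for *Idi1*, at 1.28 CPM beside 0.771 to 0.808 CPM.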

How the results depend on the processing

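The median log2 fold change of the members, IDH2 KO over WT, stayed below 0 in every alternative run, between −0.89 and −0.40 with single libraries left out. The number of members lower at an unadjusted p under 0.05 was 5 in the report and 2 to 9 with single libraries left out. It was 3 with library sizes taken without mitochondrial genes and the 10 most abundant genes, against 170 of 7618 genes. Among members with 1 RefSeq transcript it was 2 of 10, against 107 of 3539 genes (an alternative chosen after seeing the data). The number past an adjusted p was 1 without a filter on low counts, which raises the number of genes tested, and 0 to 1 with single libraries left out. The cause of these shifts was not tested. Deviations of same-numbered libraries had correlations of −0.154 to 0.003 in females and 0.021 to 0.067 in males. With so few libraries per group, deviations from a group mean depend on each other, so these values cannot exclude a pairing by number. The replicate block gave 8 members lower at an unadjusted p, against 203 of 7618 genes. It gave a median of −0.93 in females and a log2 fold change of −0.055 for *Tm7sf2*.

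With single libraries left out, the median ran from −1.06 to −0.13 in females, from −1.07 to −0.48 in males, from −0.74 to 0.18 in the interaction, where it turned above 0 without IDH2 KO female 2, and from −0.20 to 0.18 between WT sexes, where it did so without WT female 2 or WT male 3. Single genes near 0 changed sign. *Idi1* ran from −0.39 to 0.29 and was 0.051 with the reduced library sizes, *Tm7sf2* ran from −0.20 to 0.21, and *Mbtps1* from −0.45 to 0.10. Without WT female 1, *Srebf2* was below the count filter. With the length of the longest transcript, levels per kilobase over all libraries were 61.5 CPM for *Tm7sf2*, 36.4 for *Msmo1*, 0.776 for *Mbtps1* and 0.611 for *Mbtps2*. DESeq2 gave 2 members lower at an unadjusted p in females (247 of 7618 genes), 6 in males (213) and 2 in the interaction (141). The replicate block gave 2 in females, against 111 of 7618 genes. Few reads per library limit *Srebf2*, *Idi1* and *Pmvk*. Why 10 members had under 10 reads was not tested.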
